A study of Mus musculus with 9 samples.

Results

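The 9 organic anion and cation transporters described here are Slc22a2, Slc22a4, Slc22a5, Slc22a6, Slc22a7, Slc22a8, Slc22a12, Slco1a1 and Slco1a6. They are 9 of the 21950 genes with mRNA values in renal cortex, and all 9 were among the 14537 genes with a mean of at least 0.1 FPKM (fragments per kilobase of transcript, scaled to the mapped fragments of each library) over the 9 libraries. The 9 genes were selected on their measured levels in all 3 groups, so their own levels and differences are given as a description, with no p for any of them, and whether they passed the fit over all genes is likewise a description and not a test of them. Cortical RNA of 9 mice, 3 per group, was sequenced with 1 library per mouse. The control group held db/m mice, which are heterozygous for the db mutation of the leptin receptor and do not become diabetic. The dbdb group held db/db mice, which lack the signalling form of this receptor in every tissue and become obese and diabetic. The dbR group held db/db mice that received rosiglitazone, which activates the receptor PPARγ, by gavage at 20 mg/kg/day for 8 weeks, from 7 to 15 weeks of age. The dbdb group received the vehicle over the same 8 weeks, and whether the db/m mice were gavaged is not given in the sources used here. All mice were male C57BL/KsJ, the db/m mice were nondiabetic littermates, and the cortices come from mice of 15 weeks. No db/m mice were given rosiglitazone, so the drug was compared only within db/db mice.

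Cells of the proximal tubule secrete drugs, toxins and metabolites into the urine by taking them up from the blood through one set of carriers and passing them into the lumen through another. The SLC22 family holds the organic anion transporters (OATs), which exchange anions for dicarboxylates, the organic cation transporters (OCTs), which are driven by the membrane potential, and the OCTN carriers of carnitine and ergothioneine. The SLCO family holds the organic anion transporting polypeptides, which carry bile salts, steroid conjugates and thyroid hormones. Many of these genes are known in rodents for levels that differ between the sexes.

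The start sites of 2 members are shown first, because these genes of 1 family lie near each other and differed in how far their levels fell from control to db/db mice. Slco1a1 and Slco1a6 lie on the same strand of chromosome 6 with 138799 bp between them. Of the 9 members, 8 matched an entry of the RefSeq promoter table (GRCm38.p6), all but Slc22a7. The stretches below are the bases before the RefSeq start of each gene, on the strand of the gene and without bases that GENCODE places in an exon, at chr6:141946963-141947212 and chr6:142186154-142186399 (both on the minus strand). The RefSeq start of Slco1a6 lies within the longer GENCODE span of that gene, so its stretch is intronic there. Capitals mark matches to AGGTCA, the half-site bound by many nuclear receptors (printed as TGACCT where it lies on the opposite strand).
Slco1a1: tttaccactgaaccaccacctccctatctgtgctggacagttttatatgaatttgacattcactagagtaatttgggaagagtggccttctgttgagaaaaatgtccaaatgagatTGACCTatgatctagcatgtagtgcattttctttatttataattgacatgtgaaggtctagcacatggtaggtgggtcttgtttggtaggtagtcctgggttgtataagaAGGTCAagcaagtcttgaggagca
Slco1a6: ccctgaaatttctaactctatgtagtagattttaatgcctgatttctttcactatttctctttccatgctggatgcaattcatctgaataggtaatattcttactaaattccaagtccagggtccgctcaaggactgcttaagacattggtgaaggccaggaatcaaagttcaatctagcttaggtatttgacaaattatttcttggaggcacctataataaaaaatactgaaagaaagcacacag
Both strands of the 250 bases before each start were searched. AGGTCA was found in 1 of the 8 members, Slco1a1, on the strand of the gene from 24 to 19 bases before the start and on the opposite strand from 134 to 129 bases before it, and in 14.0% of 32851 promoters of the same length. A match of 6 letters describes the sequence only, and binding was not measured here.

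The 9 libraries were of similar depth. Depth relative to control replicate 1, recovered from the smallest steps between FPKM values, lay between 0.914 and 1.14, and mitochondrial genes took from 26.9% to 32.8% of the summed mRNA FPKM. Between libraries of the same group, Pearson r of log2(FPKM + 0.1) over genes lay between 0.985 and 0.992. Markers of the proximal tubule were high, with a sum over 12 genes from 7549 to 9561 FPKM in every library, while Cyp11b1 and Cyp11b2, which define the adrenal cortex, were listed at 0 in all 9 libraries and Apoa1 and Alb, defining genes of hepatocytes, had group means from 0.328 to 0.545 and from 4.96 to 15.3 FPKM. The sum of the whole hepatocyte list of 6 genes, which holds Cyp2e1, ran from 1366 to 1826 FPKM in the control libraries. This sum ran from 614 to 905 in dbdb and from 680 to 979 in dbR, so Apoa1 and Alb do not stand for the list. With limma and Benjamini-Hochberg adjustment over all 14537 genes, 3840 genes were differentially expressed (adjusted p under 0.05) in dbdb vs. control, 108 in dbR vs. dbdb and 3497 in dbR vs. control. The count in dbR vs. dbdb rests on single libraries and lay between 2 and 141 with 1 library left out. In bulk cortex, fewer cells of a type and less RNA per cell cannot be told apart. The 3 comparisons share libraries with each other, so they are not independent.

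In the control group, FPKM, which is a level per transcript length, ran from 488 ± 38.9 (SD, n = 3) for Slc22a12 through 273 ± 9.91 for Slc22a6, 264 ± 102 for Slco1a1, 162 ± 9.64 for Slco1a6, 152 ± 23.5 for Slc22a2, 111 ± 28.2 for Slc22a8 and 106 ± 1.56 for Slc22a5 to 31.4 ± 8.6 for Slc22a7 and 25.6 ± 3.06 for Slc22a4. Neighbours in this order whose libraries overlapped were Slc22a6 and Slco1a1, Slco1a6 and Slc22a2, Slc22a8 and Slc22a5, and Slc22a7 and Slc22a4. Slc22a12 was the highest of the 9 in all 3 groups. Slco1a1 ranked 3 of 9 in the control group and 8 of 9 in both db/db groups, where Slc22a7 was the lowest. The summed FPKM of the 9 members was 1613 ± 157 in the control group, 898 ± 67.6 in dbdb and 874 ± 29.0 in dbR.

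**Figure D1:**
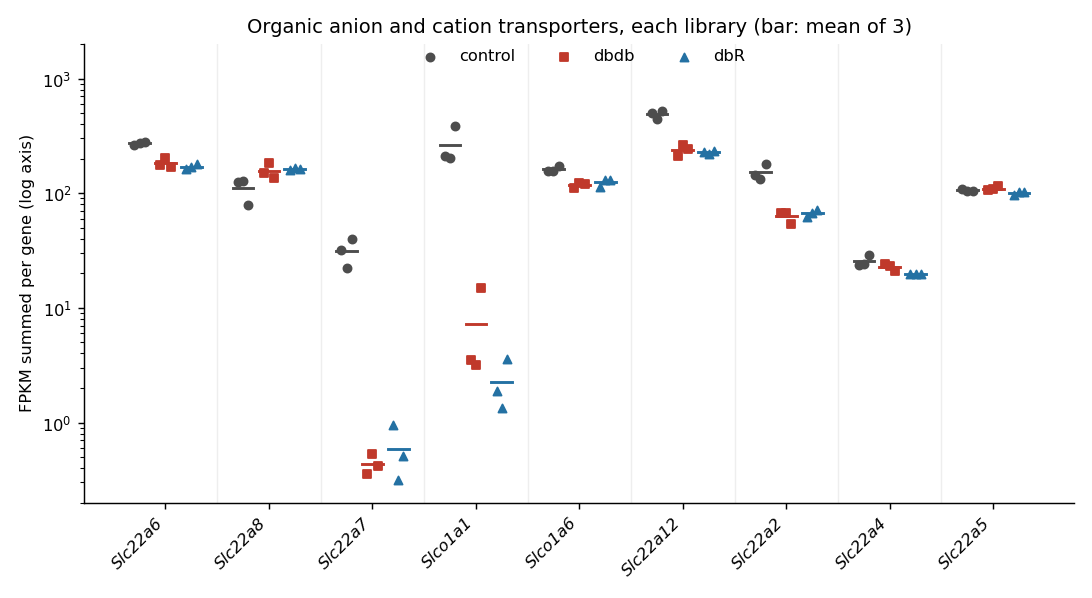
FPKM summed per gene (log axis) of the 9 transporters in each library, with 3 control (circles), 3 dbdb (squares) and 3 dbR (triangles) libraries per gene and a bar at the group mean. Slc22a7 and Slco1a1 have means of 31.4 and 264 FPKM in the control group and of 0.434 and 7.18 FPKM in dbdb, while Slc22a5 lies between 97.1 and 114 FPKM in all 9 libraries.

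Slc22a7 encodes OAT2, a carrier of organic anions, nucleobases and cyclic nucleotides (ENSMUSG00000067144, chr17:46432183-46438457, GRCm38, minus strand). Its FPKM was 32.1, 22.4 and 39.5 in the control libraries, 0.355, 0.529 and 0.418 in dbdb and 0.948, 0.318 and 0.515 in dbR. The lowest control library stood above the highest library of both db/db groups, and the dbdb and dbR libraries overlapped. The dbdb mean was 1.38% of the control mean and the dbR mean 1.89%, with log2 differences on the log2(FPKM + 0.1) scale of -5.85 ± 0.31 (SE, n = 3 per group) and -5.57 ± 0.31. Depth was estimated from the step size of low values, with an effective length 200 bases shorter than the transcript. With that depth and the full transcript length, the values of the db/db libraries correspond to between 19.0 and 61.3 fragments. Those of the control libraries correspond to between 1210 and 2300, so the order among the 6 db/db libraries rests on few fragments.

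Slco1a1 encodes OATP1A1, a carrier of steroid conjugates and bile salts that is known in mouse kidney for higher levels in males (ENSMUSG00000041698, chr6:141907282-141946962, minus strand). Its FPKM was 209.5, 201 and 382 in the control libraries, 3.49, 3.16 and 14.9 in dbdb and 1.89, 1.35 and 3.58 in dbR. All control libraries stood above all db/db libraries, dbdb replicate 3 stood above the other 5 db/db libraries, and the dbR libraries overlapped the dbdb libraries. The log2 difference was -5.49 ± 0.55 in dbdb vs. control, where the dbdb mean was 2.72% of the control mean, and without dbdb replicate 3 these were -6.20 and 1.26%. In dbR vs. dbdb the log2 difference was -1.35 ± 0.55, and without dbdb replicate 3 it was -0.64. Within dbdb the highest library was 4.70 times the lowest, the widest spread of any member in any group.

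Slco1a6, which lies upstream of Slco1a1 and encodes another carrier of this family (ENSMUSG00000079262, chr6:142085761-142208521, minus strand), had FPKM of 156, 156 and 173 in the control libraries, 111, 123 and 119 in dbdb and 112, 129.9 and 129.7 in dbR. The control libraries were above those of both other groups, and the dbdb and dbR groups overlapped. The log2 difference was -0.45 ± 0.08 for dbdb against control and 0.07 ± 0.08 for dbR against dbdb. The ratio of Slco1a6 to Slco1a1 FPKM was 0.746, 0.775 and 0.452 in the control libraries, 31.8, 38.9 and 8.03 in dbdb and 59.3, 96.3 and 36.2 in dbR, so Slco1a1 was the higher of the pair in each control library and the lower in each db/db library.

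Slc22a6 and Slc22a8 lie on the same strand of chromosome 19 with 6204 bp between them. They encode OAT1 and OAT3, the main carriers that take organic anions such as para-aminohippurate and estrone sulfate up from the blood across the basolateral membrane. Slc22a6 (ENSMUSG00000024650, chr19:8618039-8628299, plus strand) had FPKM of 262, 274 and 282 in the control libraries, 174, 204 and 170.2 in dbdb and 162, 169 and 179.6 in dbR. All control libraries were above all db/db libraries, with a log2 difference of -0.58 ± 0.08 for dbdb against control and -0.10 ± 0.08 for dbR against dbdb.

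Slc22a8 (ENSMUSG00000063796, chr19:8591254-8611835, plus strand) had FPKM of 126, 129 and 78.6 in the control libraries, 151, 181 and 135 in dbdb and 159.5, 165 and 164 in dbR. It was the only member whose db/db libraries all lay above the control libraries, and control replicate 3 was the lowest of the 9. The log2 difference was 0.51 ± 0.17 for dbdb against control and 0.58 ± 0.17 for dbR against control, and without control replicate 3 these were 0.28 and 0.35. The ratio of Slc22a6 to Slc22a8 FPKM was from 2.09 to 3.59 in the control libraries, from 1.12 to 1.26 in dbdb and from 1.01 to 1.10 in dbR. In each library Slc22a6 had the higher level, and the ratios of the control group did not overlap those of the db/db groups.

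**Figure D2:**
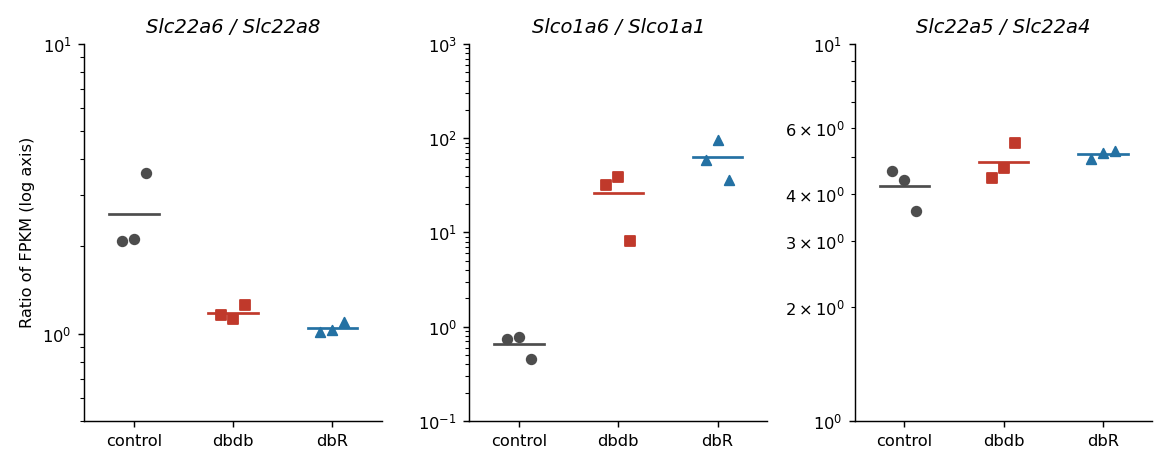
Ratio of the FPKM of 2 neighbouring members in each library (log axes of different ranges), for Slc22a6 over Slc22a8, Slco1a6 over Slco1a1 and Slc22a5 over Slc22a4, with a bar at the group mean. The mean ratio of Slc22a6 to Slc22a8 is 2.60 in the control group, 1.18 in dbdb and 1.05 in dbR, and that of Slco1a6 to Slco1a1 is 0.658, 26.3 and 63.9.

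Slc22a12 encodes URAT1, the apical exchanger that takes urate back from the lumen (ENSMUSG00000061742, chr19:6535845-6543032, minus strand, within the body of Nrxn2 on the other strand). Its FPKM was 496, 446 and 522 in the control libraries, 212, 264 and 240.5 in dbdb and 229, 219.9 and 232 in dbR. The groups of db/db mice overlapped each other and lay below all control libraries, with a dbdb mean of 49.0% and a dbR mean of 46.5% of the control mean. The log2 difference was -1.03 ± 0.09 for dbdb against control and -0.07 ± 0.09 for dbR against dbdb.

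Slc22a2 encodes OCT2, which takes organic cations such as creatinine and metformin up from the blood (ENSMUSG00000040966, chr17:12584132-12628488, plus strand). Its FPKM was 145, 133 and 179 in the control libraries, 66.8, 67.6 and 53.8 in dbdb and 62.2, 67.2 and 71.0 in dbR. Again the db/db groups overlapped each other below all control libraries, with log2 differences of -1.27 ± 0.12 for dbdb against control and 0.10 ± 0.12 for dbR against dbdb.

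Slc22a4 encodes OCTN1, a carrier of ergothioneine, and Slc22a5 encodes OCTN2, the sodium-dependent carrier that takes carnitine back from the lumen. Slc22a4 (ENSMUSG00000020334, chr11:53983123-54028090, minus strand) had FPKM of 23.4, 24.2 and 29.1 in the control libraries, 24.0, 23.0 and 21.0 in dbdb and 19.6, 19.8 and 19.8 in dbR. The control and dbdb libraries overlapped, and the dbR libraries lay below both, with log2 differences of -0.17 ± 0.09 in dbdb vs. control, -0.20 ± 0.09 in dbR vs. dbdb and -0.37 ± 0.09 in dbR vs. control.

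Slc22a5 (ENSMUSG00000018900, chr11:53864542-53891660, minus strand) had FPKM of 108, 105 and 105 in the control libraries, 106, 108 and 114 in dbdb and 97.1, 102 and 103 in dbR. The dbR libraries again lay below those of both other groups, by little: the log2 difference was 0.05 ± 0.05 in dbdb vs. control, -0.12 ± 0.05 in dbR vs. dbdb and -0.08 ± 0.05 in dbR vs. control. The ratio of Slc22a5 to Slc22a4 FPKM ran from 3.61 to 5.46 over the 9 libraries, and dbdb overlapped both other groups.

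**Figure D3:**
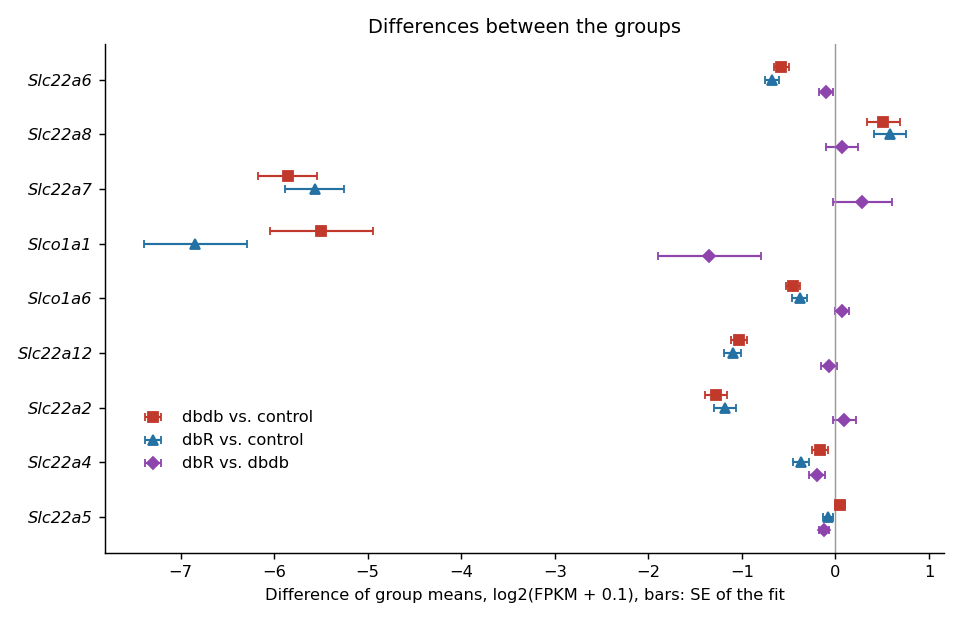
Differences of the group means of the 9 transporters on the log2(FPKM + 0.1) scale in dbdb vs. control (squares), dbR vs. control (triangles) and dbR vs. dbdb (diamonds), with bars of 1 SE of the fit. Slc22a7 and Slco1a1 lie below -5 in both comparisons with the control group, Slc22a8 lies above 0, and the differences between dbR and dbdb lie between -0.20 and 0.29 for all members but Slco1a1.

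In dbdb vs. control, 6 of the 9 members had an adjusted p under 0.05 and were lower, where 13.4% of all tested genes were lower, and 0 were higher, where 13.1% of all tested genes were (limma). With no overlap between the libraries of the 2 groups there were 7 members, 6 lower and 1 higher, where 42.4% of all tested genes had none. In dbR vs. control, 7 were lower and 1 higher, against 11.8% and 12.3% of all tested genes, and all 9 were without overlap, against 41.9%. Slc22a8 was near the threshold in both. It was called higher in dbdb vs. control in 8 of 20 alternatives, among them without control replicate 1, control replicate 2 or dbdb replicate 3, and Slc22a5 was called higher there in 2 (quantile normalization and mitochondrial genes left out). The call of Slc22a8 in dbR vs. control was lost in 7 of 20, among them without control replicate 3 and without any one of the 3 dbR libraries. In dbR vs. dbdb, 0 of the 9 had an adjusted p under 0.05, where 0.564% of all tested genes were higher and 0.179% lower, and 2 members (Slc22a4 and Slc22a5, both lower) had no overlap, where 22.7% of all tested genes had none. At an unadjusted p under 0.05 there were 3 of the 9, where 17.5% of all tested genes were. Since the members were selected on the values of all 3 groups, every one of these counts and calls describes the selection and is no evidence of a difference. The median log2 difference of the members was -0.58, -0.07 and -0.68 in dbdb vs. control, dbR vs. dbdb and dbR vs. control, where the median of all genes tested lay at -0.00 in each.

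Of the members, 5 had 1 transcript in the deposited values and 4 had 2. For Slc22a12, the transcript with 10 exons held from 94.2% to 96.2% of the gene FPKM in every library, and for Slco1a6 the transcript with 15 exons held between 76.9% and 80.7%. Slco1a1 was divided between a transcript of 14 exons and one of 15 exons. The first held from 64.9% to 69.6% of the FPKM in the control group, from 65.1% to 68.9% in dbdb and from 53.1% to 71.5% in dbR, so the lower level in db/db mice was shared by both transcripts and the division overlapped between the groups. The second transcript of Slc22a8 held at most 0.00382% of its FPKM.

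As a description over 9 libraries that share the differences between groups, Pearson r of log2(FPKM + 0.1) was 0.98 between Slc22a7 and Slc22a12, 0.97 between Slc22a6 and Slc22a12, 0.96 between Slc22a2 and Slc22a12 and 0.88 between Slco1a1 and Slco1a6. Slc22a8 had a negative r with each other member, from -0.84 with Slco1a1 to -0.18 with Slc22a5, and Slc22a5 had an r between -0.18 and 0.35 with every other member. Among 11615 genes with a mean of at least 1 FPKM, those with the highest r to Slc22a7 were Chst7 (0.999), Ace (0.996) and Me1 (0.996), and those for Slc22a2 included Amacr (0.995) and Fmo5 (0.994). Ace, the angiotensin-converting enzyme, had a mean of 46.0 FPKM in the control group, 10.5 in dbdb and 11.3 in dbR, and Amacr, which converts branched fatty acids for peroxisomal oxidation, had 125, 43.2 and 44.7. The highest for Slco1a1 were Rab11fip3, Fam8a1 and Ndufaf4 (0.987 to 0.985), for Slc22a12 Gmpr, Znrf2 and Abhd2 (0.996 to 0.993), for Slco1a6 Cadm1, Memo1 and Hltf (0.997 to 0.986) and for Slc22a6 Tbc1d19, G3bp1 and Atp13a3 (0.992 to 0.989). For Slc22a8 they were Ugt1a5, Nrip1 and Lpp (0.978 to 0.967), for Slc22a4 Zfp655, Traf4 and Trappc5 (0.978 to 0.971) and for Slc22a5 Psat1, Leprotl1 and Foxred2 (0.985 to 0.932).

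The other genes of the 2 families, taken by symbol, were tested, since the choice of the members did not name them. They are what remained once the members were taken out on their levels, with earlier results of these data known. The counts below are therefore no independent test. Of 30 other Slc22 and Slco genes measured, 20 passed the filter on low values, and in dbdb vs. control 10 of the 20 were lower and 3 higher (65.0% called, limma, adjusted p under 0.05, where 26.4% of all tested genes were called). Their median log2 difference was -0.32, where that of all genes tested was -0.00. In dbR vs. dbdb, 0 of 20 were called, with 5 of 20 at an unadjusted p under 0.05, all of them higher in dbR, where 17.5% of all tested genes were. In dbR vs. control 9 were lower and 3 higher, where 24.1% of all tested genes were called. The same shares of all tested genes are the background of the gene lists below.

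Slc22a26, Slc22a19, Slc22a30 and Slc22a28 are rodent genes of the OAT group and were lower in dbdb than in control mice. Slc22a26 had 11.6, 9.12 and 13.8 FPKM in the control libraries, 0.569, 0.602 and 0.707 in dbdb and 1.03, 1.17 and 1.37 in dbR (log2 difference -3.98 ± 0.16 in dbdb vs. control, adjusted p = 2.68e-06, limma). The 3 groups did not overlap, with dbR between the others, and the log2 difference of 0.82 in dbR vs. dbdb had an adjusted p of 0.054. Slc22a19 fell from 35.5 ± 5.23 FPKM to 3.53 ± 0.498 in dbdb mice and was at 4.41 ± 2.05 in dbR mice, a log2 difference of -3.29 ± 0.25 in dbdb vs. control (adjusted p = 3.23e-05, limma). Slc22a30 had 85.0 ± 12.4, 24.5 ± 2.22 and 25.9 ± 1.16 FPKM and Slc22a28 had 51.1 ± 11.1, 23.3 ± 1.39 and 32.5 ± 1.75 FPKM in the control, dbdb and dbR groups. These genes are close copies of each other, so FPKM also rests on how Cufflinks divided reads that match several of them.

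Slc22a22, a prostaglandin carrier of the tubule, had 103 ± 5.77 FPKM in the control group, 49.4 ± 8.27 in dbdb and 72.8 ± 10.2 in dbR, with a log2 difference of -1.07 ± 0.13 in dbdb vs. control (adjusted p = 0.000363, limma). Slc22a13, which encodes the urate and nicotinate carrier OAT10, fell by 0.84 on the log2 scale in dbdb mice, and Slc22a18 fell by 0.48. Slco1a4, next to Slco1a1, had 0.702, 0.998 and 2.39 FPKM in the control libraries (mean 1.36 ± 0.899, and 0.85 without control replicate 3) and 0.272 ± 0.0738 in dbdb. Its log2 difference in dbdb vs. control was -1.82, and -1.35 without that library. Slco3a1 had 64.5 ± 4.51 and 50.3 ± 7.34, and Slco4c1, a carrier of thyroid hormone and digoxin, had 4.09 ± 0.138 and 2.39 ± 0.392. The genes that rose in dbdb mice were Slc22a29 (1.99 ± 0.653 to 4.45 ± 0.513 FPKM), Slco2b1 (3.43 ± 0.620 to 5.07 ± 0.461) and Slco4a1 (0.571 ± 0.05 to 1.06 ± 0.0166), and in dbR mice they were at 5.86 ± 1.16, 8.09 ± 0.789 and 1.06 ± 0.155. The dbR libraries of Slco2b1 lay above all dbdb libraries, farther from control, and the log2 difference of 0.66 in dbR vs. dbdb had an adjusted p of 0.054 (limma). Slc22a23, at 22.9 ± 3.13, 28.3 ± 3.39 and 27.2 ± 2.66 FPKM, did not pass the test in any comparison. Of the 13 calls in dbdb vs. control, 9 held under every alternative run. Slco1a4 and Slco4a1 lost theirs when only the highest transcript was used, Slco3a1 lost its call in 6 of 20, among them without control replicate 1 or 3, and Slco4c1 in 6 of 20, among them without any one control library or without dbdb replicate 3. In dbR vs. control, Slc22a22 was not called without control replicate 1 or 3 or without dbR replicate 1.

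**Figure D4:**
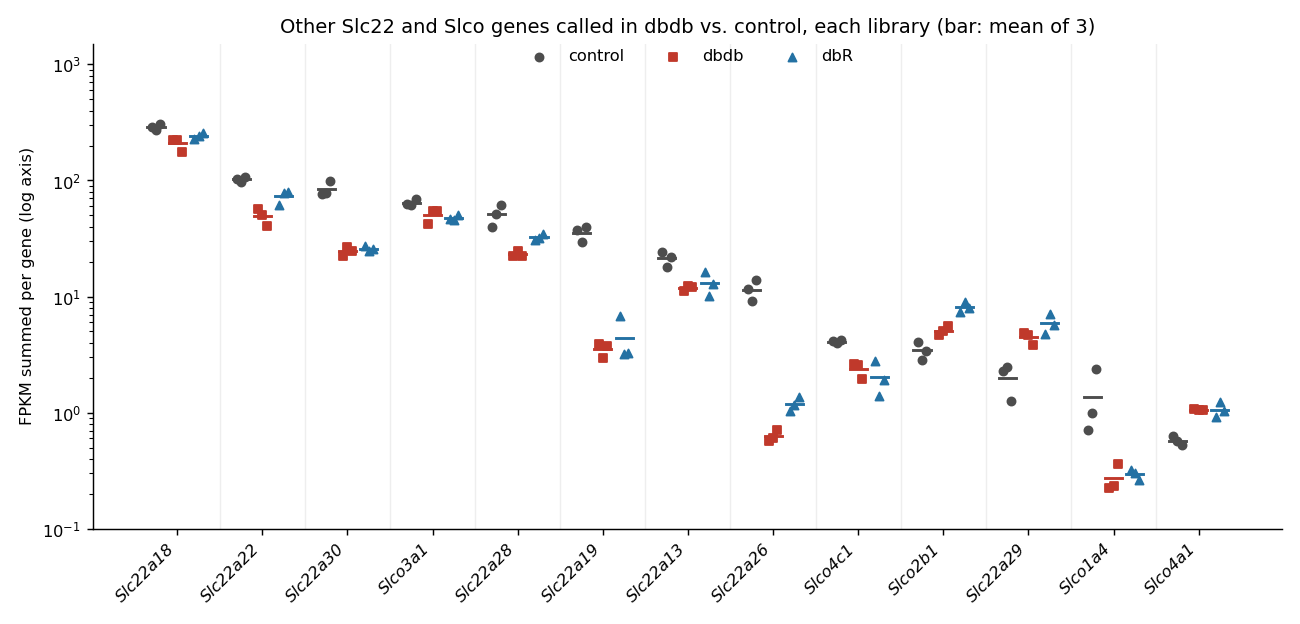
FPKM summed per gene (log axis) of the 13 other Slc22 and Slco genes called in dbdb vs. control, in order of the control mean, with 3 control (circles), 3 dbdb (squares) and 3 dbR (triangles) libraries and a bar at the group mean. Slc22a19 and Slc22a26 show the largest falls from control to dbdb (log2 difference -3.29 and -3.98), and 3 of the 13 genes are higher in dbdb.

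Carriers that work beside the members were given by a list of 25 genes, of which 23 were tested. In dbdb vs. control 9 were higher and 7 lower, in dbR vs. dbdb 1 was higher and in dbR vs. control 9 were higher and 5 lower. Among these carriers, Slc17a3, a sodium phosphate and urate carrier, fell from 279.5 ± 26.9 FPKM to 96.9 ± 10.1 in dbdb mice (log2 difference -1.53 ± 0.11, adjusted p = 2.35e-05, limma) and was at 112 ± 14.2 in dbR mice. Slc17a1 fell by 0.58 on the log2 scale, Abcg2, a urate and drug pump, by 0.48 and Slc47a1 (MATE1), which passes cations taken up by OCT2 into the urine, by 0.53. The bile salt carrier subunit Slc51a fell by 1.04, and Slc5a8, which is also in the list of the straight part below, by 0.62. In the other direction, Abcc4 (MRP4), a pump for organic anions and cyclic nucleotides, rose from 12.4 ± 2.68 to 32.6 ± 5.96 FPKM (log2 difference 1.4 ± 0.17, adjusted p = 0.000394, limma), and Slc13a2 (0.83), Slc2a9 (0.87) and Slc5a12 (0.55), carriers of dicarboxylates, urate and lactate, also rose, as did the pump Abcc3 (1.15), at 0.396 ± 0.117 FPKM in the control group, a call lost when the highest transcript was used (0.76). Abcc2, another pump for organic anions, had 87.4 ± 1.48, 84.0 ± 9.55 and 90.9 ± 0.535 FPKM and did not pass the test.

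The gene called in dbR vs. dbdb was Abcb1b, a P-glycoprotein pump, with 2.63 ± 0.300 FPKM in the control group, 5.42 ± 0.554 in dbdb and 8.22 ± 0.280 in dbR (log2 difference 0.60, adjusted p = 0.0419, limma, in dbR vs. dbdb). The groups did not overlap, but the call was lost in 13 of 20 alternatives, among them without control replicate 1 and without any one of the 6 db/db libraries, with an adjusted p of up to 0.169.

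Of 6 scaffold genes that anchor such carriers in the brush border, 2 were lower and 2 higher in dbdb vs. control. Pdzk1, a scaffold that binds URAT1, had 758 ± 24.9 FPKM in the control group and 622 ± 30.0 in dbdb (log2 difference -0.29, adjusted p = 0.0202, limma), and Pdzd3 fell by 0.31. The call of Pdzk1 was lost in 5 of 20 alternatives, among them without control replicate 3 or dbdb replicate 3, and both were lost with mitochondrial genes left out (log2 differences of -0.13 and -0.16). Ezr and Slc9a3r2 rose by 0.34 and 0.30. In dbR vs. dbdb 0 of the 6 were called, with 0 at an unadjusted p under 0.05.

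Among 27 tested nuclear receptors and other regulators known to act on these genes, 9 were higher and 4 lower in dbdb vs. control, 0 were called in dbR vs. dbdb (7 at an unadjusted p under 0.05, 2 of them higher, limma), and 6 were higher and 3 lower in dbR vs. control. Ghr, the growth hormone receptor, fell from 405 ± 37.1 FPKM to 199.5 ± 11.7 in dbdb mice and was at 204 ± 10.2 in dbR mice (log2 difference -1.02 ± 0.08 in dbdb vs. control, adjusted p = 3.52e-05, limma). Hnf4g fell by 0.95 on the log2 scale and Esr1, an estrogen receptor, by 0.56, while Ppara rose by 0.78, Cebpb by 1.48 and Prlr, the prolactin receptor, by 1.21. The calls of Esr1 and Prlr were lost in 6 and 9 of 20 alternatives, among them, for both, without dbdb replicate 2 or 3, for Esr1 without control replicate 1 or 2, and for Prlr without dbdb replicate 1 or dbR replicate 2 or 3. Hnf4a, a nuclear receptor of tubule and liver cells, had 239 ± 13.3, 222 ± 10.4 and 208 ± 13.8 FPKM in the control, dbdb and dbR groups and did not pass the test in any comparison.

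For the substrates of Slc22a5 and Slc22a12, genes of carnitine synthesis and use and of purine breakdown to urate were counted. Of 11 carnitine genes, 4 were higher and 2 lower in dbdb vs. control, 0 were called in dbR vs. dbdb (5 at an unadjusted p under 0.05, 1 of them higher, limma), and 2 were higher and 3 lower in dbR vs. control. Crot, the peroxisomal carnitine octanoyltransferase, had 146 ± 14.3 FPKM in the control group, 61.3 ± 1.28 in dbdb and 60.1 ± 1.55 in dbR (log2 difference -1.25 ± 0.07 in dbdb vs. control, adjusted p = 7.55e-06, limma), and Tmlhe, the first enzyme of carnitine synthesis, fell by 0.52. Cpt1b, Shmt1, Slc25a20 and Bbox1 rose by 0.97, 0.36, 0.38 and 0.93, the last at a mean of 1.28 FPKM in the control group and with a call that was lost without control replicate 3. The call of Slc25a20 was lost without dbdb replicate 2. Of 8 purine genes tested, 1 was higher and 2 lower in dbdb vs. control and 0 were called in dbR vs. dbdb (0 at an unadjusted p under 0.05, limma). Xdh, which makes urate, rose from 8.04 ± 0.713 to 16.5 ± 4.09 FPKM in dbdb mice, while Urah and Pnp fell by 0.51 and 0.29 with calls that were lost in 6 and 7 of 20 alternatives, among them without control replicate 2 or 3 and without dbdb replicate 1. Uox, which degrades urate, was listed at group means of at most 0.0193 FPKM. Of the 42 calls in dbdb vs. control among the carriers, scaffolds, regulators, carnitine and purine genes, 30 held under every alternative run and 12 were lost in at least 1.

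Position was not used in the choice of the members. Within 100 kb of a member lay 19 other mRNA genes that were tested. In dbdb vs. control, 2 of them were higher and 4 lower (31.6%, where 26.4% of all tested genes were called), in dbR vs. dbdb 0 were called (1 at an unadjusted p under 0.05, limma), and in dbR vs. control 3 were higher and 4 lower (36.8%, where 24.1% of all were), so nothing is read from these counts. Beside Slc22a7, Gm5093 (1121 bp away) had a mean of 0.376 ± 0.128 FPKM in the control group and was listed at 0 in all 6 db/db libraries, so that it passed the filter on low values only through the control group and its call is no support, and Ttbk1 (3991 bp away) had 0.923 ± 0.133 FPKM in the control group and 0.364 ± 0.0501 in dbdb (log2 difference -1.14 ± 0.18, adjusted p = 0.00165, limma), while Crip3, at 407 bp, and Zfp318, at 11263 bp, did not pass the test. Between Slco1a1 and Slco1a6 lay Gm6614, which rose from 0.478 ± 0.112 FPKM in the control group to 3.19 ± 0.739 in dbdb and was at 2.36 ± 0.634 in dbR (log2 difference 2.51 ± 0.23 in dbdb vs. control, adjusted p = 7.33e-05, limma), opposite to both members beside it and to Slco1a4. How reads were divided between Gm6614 and the Slco1a genes around it was not tested. Slc3a2, which lies 78583 bp from Slc22a6, rose from 93.0 ± 11.3 to 147 ± 13.4 FPKM. Nrxn2, on the strand opposite to Slc22a12, had 1.55 ± 0.137 and 2.00 ± 0.242 FPKM and was not called in dbdb vs. control (adjusted p = 0.0654, limma), and was higher by 0.49 in dbR vs. control (adjusted p = 0.0176), a call lost without control replicate 1 or 2 or dbR replicate 1.

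Markers of the parts of the proximal tubule also differed between the groups. Of 8 markers of the straight part, 6 were lower and 1 higher in dbdb vs. control, 1 was higher in dbR vs. dbdb and 6 were lower and 2 higher in dbR vs. control. Their summed FPKM was from 1236 to 1586 in the control libraries, from 616 to 678 in dbdb and from 665 to 771 in dbR. Cyp7b1, an oxysterol hydroxylase known for higher levels in male mouse kidney, fell from 61.0 ± 18.6 to 3.25 ± 0.923 FPKM (log2 difference -4.19 ± 0.23, adjusted p = 7.55e-06, limma) and was at 2.91 ± 0.247 in dbR mice. Slc7a13, an amino acid carrier of the last part of the straight tubule, had 471 ± 86.7, 59.2 ± 3.35 and 124 ± 28.6 FPKM, and Atp11a had 269 ± 37.7, 66.1 ± 6.47 and 56.5 ± 6.28. Slc7a13 was called in dbR vs. dbdb (log2 difference 1.04, adjusted p = 0.0282, limma), a call that was lost in 7 of 20 alternatives, among them without dbdb replicate 1, without dbdb replicate 2, without dbR replicate 2 and without dbR replicate 3. The others of the list moved less or the other way. Slc3a1 fell by 0.39 in dbdb mice, Slc5a10 rose by 0.80 there and was higher by 0.63 in dbR vs. control, and Slc5a1, a glucose carrier, was not called in dbdb vs. control (log2 difference 0.10) and was higher by 0.44 in dbR vs. control. The call of Slc6a18, lower in both db/db groups, was lost in 4 of 20 alternatives in dbdb vs. control, among them without control replicate 3, and in 10 of 20 in dbR vs. control, among them without any one control library or without dbR replicate 2.

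Of 7 markers of the convoluted part, 3 were higher and 0 lower in dbdb vs. control (2 of these calls were lost in at least 1 alternative), with a sum from 1700 to 1882 FPKM in the control libraries, from 1897 to 2531 in dbdb and from 2155 to 2323 in dbR. Of 12 markers of all segments, 2 were higher and 4 lower, with a sum between 9010 and 9561, between 7549 and 9479 and between 8945 and 9271. One of the higher calls, Fbp1, was lost in 7 of 20 alternatives, among them without control replicate 1 or 2 and without dbdb replicate 1 or 2. The median log2 difference in dbdb vs. control was -0.54 for the straight part, 0.28 for the convoluted part and -0.24 for all segments. The part of cell numbers in the transporter levels was not tested.

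Markers of the other cell types of the cortex were counted too. In dbdb vs. control, all 5 markers of intercalated cells, all 4 of the distal convoluted tubule, 4 of 5 of principal cells, 3 of 6 of podocytes and 1 of 5 of the thick ascending limb were higher, and 4 of 6 of endothelium and 4 of 5 of leukocytes were lower. The calls of the intercalated, distal convoluted and principal cell lists held under every alternative run, and 3 of the 4 endothelial calls, 1 of the 4 leukocyte calls, 1 of the 3 podocyte calls and the 1 of the thick ascending limb were lost in at least 1. In dbR vs. control, the same lists had 5 of 5, 4 of 4, 4 of 5, 2 of 6 and 4 of 5 higher, endothelium had 2 of 6 higher (Tek and Flt1, by 0.46 and 0.33) and 0 lower, and leukocytes 2 of 5 lower. The 4 calls of the thick ascending limb and the 2 of endothelium were each lost in at least 1 alternative, that of Tek for the highest transcript and that of Flt1 in 6 of 20, among them without control replicate 1 or 3 or any one dbR library. The call of Aqp2, of principal cells, was lost in 3 of 20, among them without control replicate 2 or dbR replicate 3. That of Ptprc, of leukocytes, was lost for the highest transcript. The summed FPKM of the distal convoluted tubule list ran from 196 to 219 in control, from 445 to 552 in dbdb and from 437 to 499 in dbR libraries, with Calb1, a calcium-binding protein, at 42.7 ± 2.52 in the control group and 189 ± 43.0 in dbdb. The leukocyte list ran from 16.1 to 19.7, from 6.23 to 7.92 and from 9.57 to 9.95. In dbR vs. dbdb, 3 of 6 endothelial markers (Kdr, Emcn and Tek), 1 of 5 of intercalated cells (Atp6v1g3) and 1 of 5 of fibroblasts and mural cells (Pdgfrb) were higher, but each of these 5 calls was lost in 5 to 15 of 20 alternatives, and all 5 were lost without dbR replicate 2 and also without dbR replicate 3. The call of Tek was lost without any one of the 9 libraries. Of the hepatocyte list, 2 of 5 tested were higher and 1 lower in dbdb vs. control, the last being Cyp2e1, which the kidney also expresses. Alb, which encodes albumin, had 4.96 ± 0.191, 9.43 ± 2.35 and 15.3 ± 1.88 FPKM in the control, dbdb and dbR groups and was called higher in both db/db groups against control under all 20 alternatives (log2 differences of 0.88 and 1.6). The other higher call, Ttr, was lost in 12 of 19 alternatives, among them without control replicate 1 or 2, dbdb replicate 1 or 2 or dbR replicate 3. In that comparison 0 of 2 tested markers each of adipocytes and of the adrenal cortex were called (2 and 1 at an unadjusted p under 0.05, limma). The part of these cell types in the transporter levels was not tested.

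**Figure D5:**
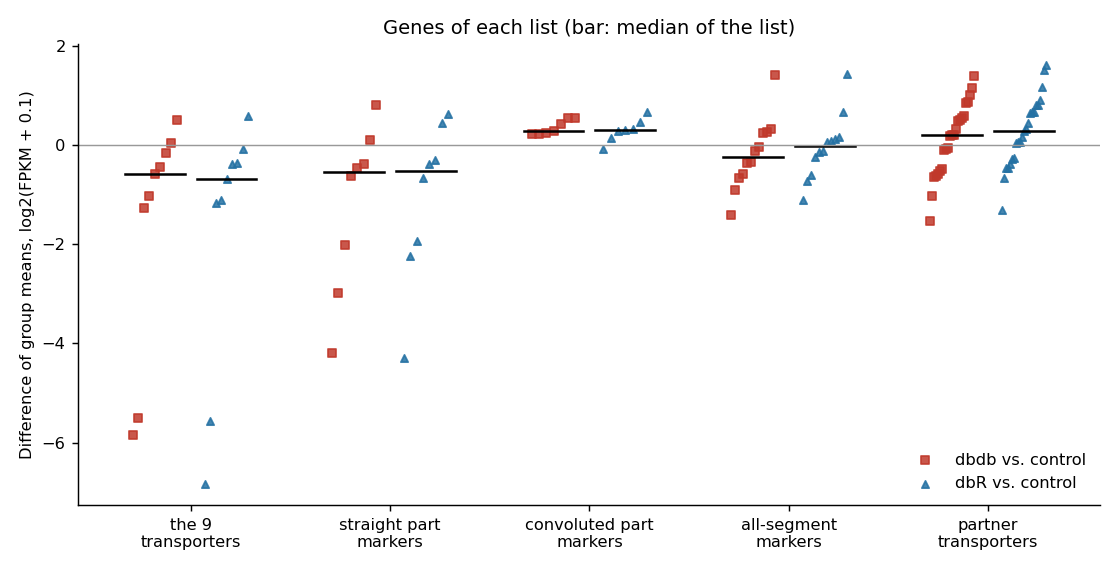
Difference of group means on the log2(FPKM + 0.1) scale of the 9 transporters and of the genes tested in 4 lists, in dbdb vs. control (squares) and dbR vs. control (triangles), with a bar at the median. The medians in dbdb vs. control are -0.58 for the transporters, -0.54 for the markers of the straight part, 0.28 for those of the convoluted part, -0.24 for those of all segments and 0.19 for the partner transporters.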

How the data were processed

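The 9 cortical libraries were grouped by their sample titles, 3 each as control, dbdb and dbR. Per the labels and the study's methods, the authors depleted ribosomal RNA, made directional libraries, aligned paired reads to the mouse genome (GRCm38.p2) with TopHat2 2.0.9 and assembled transcripts with Scripture and Cufflinks 2.1.1. They deposited FPKM values from Cufflinks for 21950 mRNA genes (50660 transcripts) and, in separate files, for 2071 known and 461 assembled lncRNA transcripts. FPKM holds no read counts, so no count test was used, and it rests on the division of reads among transcripts and close copies. The lncRNA values were looked at only within 100 kb of the members.

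FPKM was summed per gene, and log2(FPKM + 0.1) of the 14537 genes with a mean of at least 0.1 was fitted with limma 3.58.1 (R 4.3.3) in 1 model of the 9 libraries, letting the prior variance follow the mean level. p-values are two-sided and Benjamini-Hochberg adjusted over all these genes, and a gene was called under 0.05. They rest on a spread between mice that is pooled over the 3 groups and drawn toward that of genes of similar level. They do not measure the spread of the 2 compared groups alone. Estimated depth was from 26.2 to 32.5 M fragments per library. A gene in 2 lists was counted in both. Differences on this scale understate the change of low genes. The model was also run on simulated data for the same 14537 genes, with independent normal noise. In these, 200 genes were changed by 1 on the log2 scale in dbdb vs. control and all others left unchanged. The 200 were drawn only from genes of a higher level than the filter requires. Of them 90% were found, and 11 of the 191 calls were false. This share does not extend to genes of lower level or to data in which many genes differ. The members, the gene lists and the motifs were chosen with earlier results of these data known. The text names the members, the other Slc22 and Slco genes that were called or had a mean of at least 10 FPKM, up to 5 called genes per list and those needed to state its count, and for each member the 3 genes with the highest Pearson r, except for some genes that, like 2 of the 3 motifs searched, are not reported here. Gm5093, Ttbk1, Gm6614, Crip3, Zfp318, Slc3a2 and Nrxn2 are named for their position, and other list genes (Slc17a1, Abcg2, Slc47a1, Slc5a1, Slc3a1, Slc6a18, Fbp1, Slc5a8, Slc5a12, Slc13a2, Slc2a9, Abcc2, Esr1, Hnf4a, Shmt1, Uox and the markers outside the proximal tubule) for their role, after their values were seen. Coordinates come from the GENCODE annotation of GRCm38. Replicate numbers were not used to pair libraries. Alternatives were pseudocounts of 1 and 0.01, no filter, a mean of at least 1 FPKM, scaling to the 75th percentile, quantile normalization, mitochondrial genes left out, only the 6 libraries compared, no variance trend, a replicate block, the highest transcript and each library left out. Other calculations used python 3.11.15 with pandas 2.3.3 and numpy 2.4.6, and figures matplotlib 3.10.9.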

Additional observations from a re-analysis of the deposited data

How the results depend on the processing

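Of 540 differences of the members under the alternatives (27 results), 524 moved by less than 1 SD between replicates, 16 moved by more and 0 of those called reversed. Leaving out the mitochondrial genes raised the median of all genes by 0.15 in dbdb vs. control and moved the share of higher calls from 49.5% to 78.3% there, from 51.1% to 70.5% in dbR vs. control and from 75.9% to 48.6% in dbR vs. dbdb. With that shift included, the differences in dbdb vs. control were -1.12 for Slc22a2, -0.01 for Slc22a4, 0.20 for Slc22a5, -0.42 for Slc22a6, -0.87 for Slc22a12, -0.30 for Slco1a6 and 0.67 for Slc22a8, and the difference of Slc22a5 in dbR vs. control turned from -0.08 to 0.02. Scaling to the 75th percentile moved the share in dbR vs. control to 62.3%. With a pseudocount of 1, Slc22a7 had -4.46 in dbdb vs. control.

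All genes called in dbR vs. dbdb numbered 108, and 31 with no filter, 166 at a mean of at least 1 FPKM, 203 scaled to the 75th percentile, 234 after quantile normalization, 36 with only the 6 libraries, 18 without the variance trend, 23 with the replicate block, 5 transcripts when transcripts were tested in place of genes (4 of them the highest of their gene) and between 2 and 141 with 1 library left out (2 without dbR replicate 2). The other Slc22 and Slco genes called there numbered 0, and 1 with a pseudocount of 1 or with only the 6 libraries, 2 at a mean of at least 1 FPKM, scaled to the 75th percentile or after quantile normalization, and between 0 and 2 with 1 library left out. The 1 call among the path lists there became 0 with no filter, only the 6 libraries, no variance trend, the replicate block or the highest transcript, and was between 0 and 1 with 1 library left out. Neighbouring genes called fell from 6 to 3 in dbdb vs. control and from 7 to 4 in dbR vs. control at a mean of at least 1 FPKM, and to 4 in dbR vs. control for the highest transcript. They numbered between 4 and 8 there with 1 library left out (4 without control replicate 3 or dbR replicate 1).

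Same-numbered libraries of different groups correlated between -0.175 and 0.0615 in their deviations from the group means, in 0 of 9 pairs over 0.1. Libraries of different numbers correlated between -0.108 and 0.168, in 2 of 18 pairs over 0.1. The labels do not say what the numbers stand for, and these values cannot tell whether same-numbered libraries were handled together. Levels below about 1 FPKM rest on few fragments.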
